A study of Mus musculus with 30 samples.

Results

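The genes described here are 10 members of the Eph and ephrin gene family, namely the receptors *Epha3*, *Epha4*, *Epha7*, *Ephb1*, *Ephb2* and *Ephb3* and the ephrins *Efna1*, *Efna2*, *Efna5* and *Efnb2*. They were taken by name from the deposited tables, as 10 of 50833 counted genes and of 20569 counted protein-coding genes, and all 10 passed the filter on low counts in every comparison. By class, they comprise 3 class A receptors, 3 class B receptors, 3 class A ephrins and 1 class B ephrin.

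Eph receptors are receptor tyrosine kinases whose ligands, the ephrins, stay attached to the surface of the neighbouring cell. Class A ephrins are held by a lipid anchor and class B ephrins by a transmembrane segment, and both mostly bind receptors of their own class. Contact between a cell carrying the receptor and a cell carrying the ephrin can signal into both of them and typically makes cells separate, sort or turn away from each other. In the limb bud the family is known from the sorting of mesenchymal cells along the proximal-distal axis, from the growth of cartilage condensations, from vessels, where *Efnb2* marks arteries, and from the choice that motor axons make at the limb base, in which *Epha4* takes part.

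PolyA RNA of whole forelimb buds from wild-type Swiss Albino mouse embryos was sequenced. Pregnant females were injected once, intraperitoneally, at embryonic stage E10.5 with DMSO, the solvent, or with C59 (Wnt-C59). C59 inhibits porcupine, the enzyme that attaches a lipid to WNT proteins and without which they are not secreted. Limb buds were collected 1, 6, 12, 18 and 24 h later, giving 10 groups of 3 libraries and 30 libraries in all. Per the study's methods, each library came from 1 pair of forelimb buds, and embryos of both sexes were used in the study. The compound was given to the mother and was not confined to the limb, and the tissue was the whole bud, so in every value below fewer cells of a type and less RNA per cell cannot be told apart.

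The libraries held 18188636 to 38974885 counts, and a member had between 131 (*Ephb1*) and 8898 (*Epha4*) of them in a library. No pair of replicates agreed within sampling noise, with a chi-square per degree of freedom of 3.13 to 45.5, and C59 18 h replicate 3 stood apart from the other two libraries of its group (45.5 and 38.1). Summed, the FPKM of 4 Y-linked genes gave 0.0469 to 9.03 in DMSO and 21.3 to 38.2 in C59 at 1 h, and 0 in DMSO and 19.8 to 33.2 in C59 at 6 h. At these times sex and treatment cannot be told apart. At 24 h it was 19.3 to 24.98 in C59 and 0.0147 to 20.1 in DMSO, and at 12 h and 18 h both groups contained libraries with and without it. *Axin2*, a direct target of canonical WNT signaling used as the check of the treatment, was lower after C59 at 1 h, by a log2 fold change of -0.19 ± 0.043 (edgeR, adjusted p = 0.0282). The decrease was -1.97 ± 0.063 at 6 h (edgeR, Benjamini-Hochberg adjusted p = 7.55e-11) and -1.45 ± 0.058 at 12 h (edgeR, adjusted p = 1.40e-07). It was -0.16 ± 0.092 at 18 h and -0.085 ± 0.068 at 24 h, where it did not pass the test (edgeR, adjusted p = 0.333 and 0.507).

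The promoters of *Ephb1*, *Efna1* and *Epha3* are printed because these genes carry the main results: *Ephb1* and *Efna1* had the largest increases and *Epha3* the largest decrease at 12 h. Each is the RefSeq window on GRCm38.p6 (mm10), from 250 bases before to 50 bases after the start site, read 5′ to 3′ on the gene's strand, which is minus for these genes. Capitals mark the only motif match found. The windows are chr9:102354644-102354943 for *Ephb1*, chr3:89280902-89281201 for the upstream one of the *Efna1* start sites and chr16:63864126-63864425 for *Epha3*.
Ephb1: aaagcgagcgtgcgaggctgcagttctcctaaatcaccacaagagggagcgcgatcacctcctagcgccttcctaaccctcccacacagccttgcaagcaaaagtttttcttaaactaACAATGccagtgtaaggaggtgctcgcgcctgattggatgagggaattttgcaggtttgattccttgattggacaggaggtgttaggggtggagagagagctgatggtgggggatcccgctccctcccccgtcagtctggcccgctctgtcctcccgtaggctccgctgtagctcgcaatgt
Efna1: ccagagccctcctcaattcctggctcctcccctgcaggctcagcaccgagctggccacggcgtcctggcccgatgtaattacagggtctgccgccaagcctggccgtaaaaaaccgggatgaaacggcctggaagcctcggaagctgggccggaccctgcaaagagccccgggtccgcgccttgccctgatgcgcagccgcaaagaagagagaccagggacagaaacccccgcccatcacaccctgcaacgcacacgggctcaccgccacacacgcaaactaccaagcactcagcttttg
Epha3: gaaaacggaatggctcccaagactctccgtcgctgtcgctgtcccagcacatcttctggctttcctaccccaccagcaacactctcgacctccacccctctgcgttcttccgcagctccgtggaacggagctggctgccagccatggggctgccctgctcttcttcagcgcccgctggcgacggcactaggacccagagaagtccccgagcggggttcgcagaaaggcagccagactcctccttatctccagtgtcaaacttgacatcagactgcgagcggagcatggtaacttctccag
All 10 members were matched to RefSeq by symbol and had 12 windows, since *Efna1* and *Epha7* have more than 1 start site. On both strands the windows were searched for CTTTGAT, a TCF/LEF motif, and ACAATG, a SOX motif. The SOX motif occurred once, in the *Ephb1* window, 132 bases before the start site on the strand shown, and the TCF/LEF motif in none, which says only that these letters were not in these windows. Among all 32851 windows of the table, 12.6% held the SOX motif and 3.73% the TCF/LEF motif. The members' windows were rich in G and C, at 55.7% to 74.7% against a median of 52.7% over all windows, and held 14 to 38 CpG dinucleotides against a median of 7. All windows together cover 27025 genes, not limited to expressed or protein-coding ones, and were not matched to the members. The *Ephb1* window had the lowest GC share and the fewest CpG dinucleotides of the 12.

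In control limb buds the members covered a wide range of levels. On the FPKM scale (fragments scaled by transcript length and by library size, which corrects for transcript length and so allows genes to be compared), the order at 1 h in DMSO ran from *Efna2* at 42.6 ± 2.43 (mean ± SD, n = 3) and *Efnb2* at 33.95 ± 0.496 down. *Ephb3* at 20.7 ± 0.282, *Epha4* at 17.4 ± 1.55, *Ephb2* at 17.3 ± 0.180 and *Efna1* at 12.3 ± 0.975 FPKM stood in the middle. The lowest were *Epha7* at 8.30 ± 0.782, *Efna5* at 7.97 ± 0.369, *Epha3* at 6.09 ± 0.835 and *Ephb1* at 1.34 ± 0.120. Neighbours in this order whose 3 libraries overlapped were *Epha4* and *Ephb2*, and *Epha7* and *Efna5*. The most abundant members were thus ephrins of either class, and *Ephb1* was the least abundant one in every group. In DMSO at 24 h, *Efna2* at 35.7 ± 0.334 and *Efnb2* at 35.7 ± 0.986 FPKM overlapped at the top, and so did *Ephb2* and *Efna1*, *Efna1* and *Epha3*, and *Efna5* and *Epha7* further down. After 12 h of C59 the order was different at the top. *Ephb3* had the highest mean, at 44.7 ± 0.970 FPKM. *Efna2* at 40.6 ± 3.20, *Efna1* at 37.02 ± 6.15 and *Efnb2* at 36.6 ± 6.26 FPKM followed, each overlapping with the next. The lowest *Ephb3* library, at 43.7 FPKM, was below the highest of *Efna1*, at 44.1, and barely above that of *Efna2*, at 43.6.

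**Figure D1:**
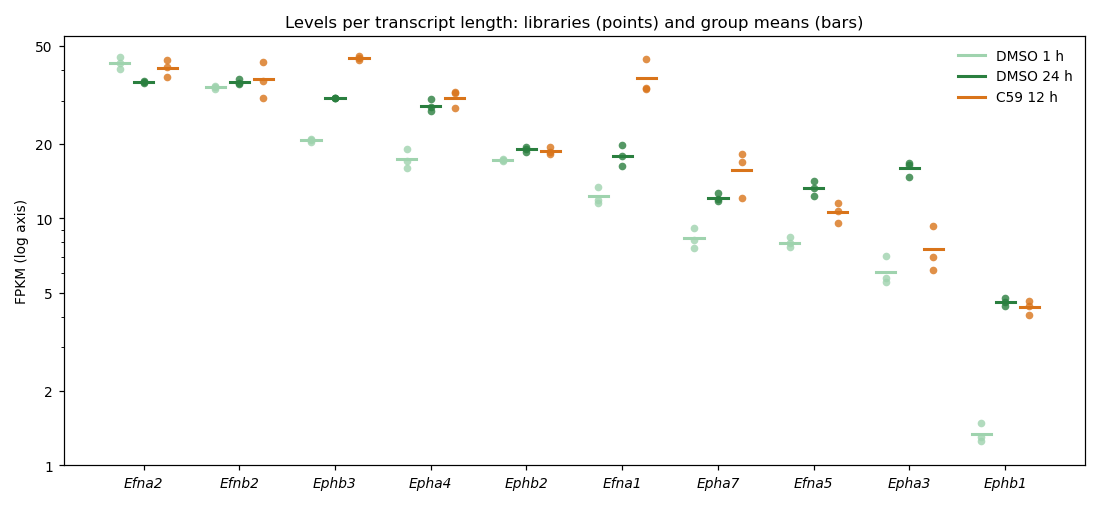
FPKM (log axis) of the 10 members in DMSO at 1 h, DMSO at 24 h and C59 at 12 h, with 3 libraries (points) and their mean (bar) per group, ordered by the DMSO 1 h mean. *Efna2* at the left stayed between 35.4 and 45.1 FPKM in all 9 libraries, whereas *Ephb1* at the right went from 1.25 to 1.48 FPKM in DMSO at 1 h to 4.43 to 4.75 in DMSO at 24 h and 4.06 to 4.61 in C59 at 12 h.

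The course in control limb buds was examined first, because the genes were changing during the same 24 h. Levels of a single gene are given from here on as CPM, the usual scaling of counts to a common library size, here TMM-scaled. Between 1 h and 24 h after DMSO, 7 members rose, 1 fell and 2 did not pass the test (the edgeR quasi-likelihood F test, passed when p adjusted by Benjamini-Hochberg over all genes was under 0.05), with a median log2 fold change of 0.49 against 0.0023 over all genes tested. Of all genes tested, 28.9% rose and 27.6% fell. The libraries of the earlier and later group did not overlap for 8 members and for 64.5% of all genes.

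The largest increase was that of *Ephb1*, a class B receptor. Its CPM were 6.79, 8.48 and 7.86 in DMSO at 1 h and 24.8, 24.7 and 25.4 at 24 h. All later libraries were far above all earlier ones, and the log2 fold change was 1.70 ± 0.13 (edgeR, Benjamini-Hochberg adjusted p = 6.00e-09). The step from 12 h to 18 h was 0.42 ± 0.13 (edgeR, adjusted p = 0.0380) and that from 18 h to 24 h 0.84 ± 0.12 (edgeR, adjusted p = 0.000362). The earlier steps of 0.23 and 0.21 did not pass the test, and earlier and later steps were not tested against each other.

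*Epha3*, a class A receptor, came next, with 40.7, 38.7 and 47.1 CPM at 1 h and 114, 98.4 and 107 CPM at 24 h. The groups did not overlap, and the log2 fold change was 1.33 ± 0.15 (edgeR, adjusted p = 1.24e-06). It rose between 6 h and 12 h by 0.63 ± 0.16 and between 18 h and 24 h by 0.58 ± 0.15 (edgeR, adjusted p = 0.0299 and 0.0185). In DMSO at 12 h, replicate 2 had 98.5 CPM and replicates 1 and 3 had 66.3 and 56.7 CPM. The summed Y-linked FPKM was 0 in DMSO at 6 h and 0.146 to 38.6 at 12 h, and the part of sex in this step was not tested.

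The other members that rose did so by less, with log2 fold changes of 0.64 ± 0.090 for *Epha4*, 0.59 ± 0.086 for *Efna5*, 0.50 ± 0.045 for *Ephb3*, 0.48 ± 0.094 for *Efna1* and 0.44 ± 0.073 for *Epha7*. *Efna2*, the most abundant of the 10 at 1 h on the FPKM scale, was the member that fell, at -0.33 ± 0.057 (edgeR, adjusted p = 0.000108). *Ephb2* at 0.059 ± 0.051, with a 95% interval of -0.048 to 0.17, and *Efnb2* at -0.0011 ± 0.046, with an interval of -0.099 to 0.096, did not pass the test. *Ephb2* was called in both limma fits on FPKM, at 0.14 each (adjusted p = 0.00764 and 0.00823). *Ephb2* also fell between 12 h and 18 h, at -0.17 ± 0.051 (edgeR, adjusted p = 0.0360).

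**Figure D2:**
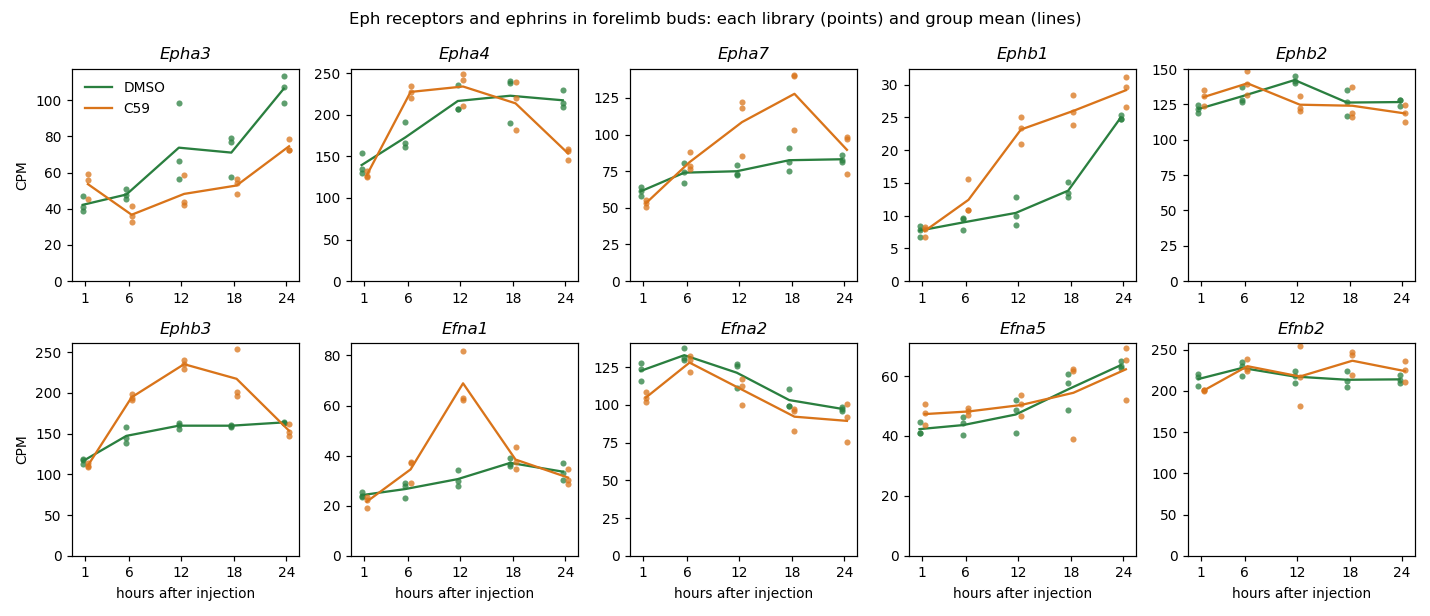
CPM of each member (vertical axis from 0) against hours after injection, for DMSO and C59, with every library as a point and lines through the group means (n = 3 per group). The C59 line of *Efna1* stood above DMSO at 12 h, with 62.1 to 81.8 against 27.7 to 34.2 CPM, and was back among the DMSO libraries at 18 h, whereas that of *Epha3* lay under DMSO from 6 h on and that of *Efnb2* stayed near it throughout.

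The comparison of C59 with DMSO at each time asked which members differed after C59 was given. The study describes 18 h and 24 h as the recovery of WNT signaling, and *Axin2* did not pass the test at these times. Each comparison was made on the 6 libraries of that time, and here too a gene passed at an adjusted p below 0.05. At 1 h, 1 of 10 members was lower and none higher, where 1.61% of all genes tested were lower and 1.14% higher. edgeR gave an unadjusted p below 0.05 for 3 members with higher and 4 with lower values at 1 h, and DESeq2 called 1 higher and 1 lower. At this and the later times, the shares of all genes hold for the edgeR adjusted p alone. They cannot be set beside the counts by unadjusted p or by DESeq2. At 6 h, where the Y-linked genes also separated the groups and their part was not tested, 3 members were higher and 1 was lower (8.2% and 11.4% of all genes). At 12 h, 4 were higher and 2 lower (22.0% and 25.5% of all genes), with 2 of the increases beyond a log2 fold change of 1 (3.53% of all genes). At 18 h, 3 were higher and none lower (3.46% and 3.62% of all genes). At 18 h, 1 member had a lower value at an unadjusted p below 0.05, and DESeq2 and limma called none lower. At 24 h, 2 were lower and none higher (3.56% and 2.88% of all genes), 1 member having a higher value at an unadjusted p below 0.05 and DESeq2 and limma calling none. With upper-quartile factors in place of TMM, the genes passing at 12 h divided into 4088 higher and 2575 lower in place of 2934 and 3396, those at 6 h into 1369 and 1266 in place of 1074 and 1491, and those at 18 h into 560 and 424 in place of 464 and 485. At 12 h the members' share of calls, 6 of 10, stood beside 47.5% of all genes.

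In the order of the times, the C59 and DMSO libraries of 3, 5, 5, 5 and 4 members did not overlap, where 22.0%, 36.8%, 57.1%, 34.2% and 27.7% of all genes tested did not overlap. The median log2 fold change of the members was between -0.088 and 0.14 at the 5 times and that of all genes between 0.0012 and 0.017.

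**Figure D3:**
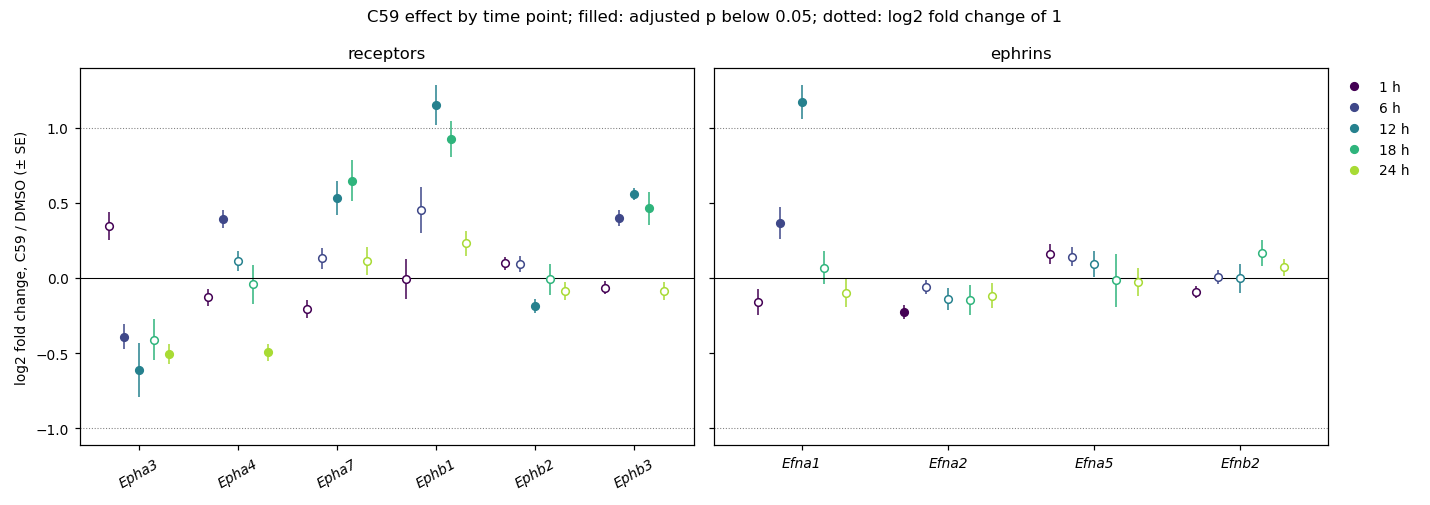
Log2 fold change of C59 over DMSO (± SE, 3 against 3 libraries) for the 6 receptors and 4 ephrins, with 1 point per time after injection, filled where the edgeR adjusted p was below 0.05. *Ephb1* and *Efna1* passed the dotted line of a log2 fold change of 1 at 12 h (1.15 and 1.17), *Epha3* lay below 0 from 6 h on, and *Efna5* and *Efnb2* had no filled point.

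Among the class A receptors, *Epha3* (ENSMUSG00000052504, chr16:63543534-63864175, minus strand), a receptor known from the endocardial cushions of the heart, was lower after C59 at 3 of the 5 times. At 6 h it had 45.2, 51.1 and 47.3 CPM in DMSO and 32.5, 41.6 and 35.9 CPM in C59. All C59 libraries were lower than all DMSO libraries, at a log2 fold change of -0.39 ± 0.083 (edgeR, adjusted p = 0.00494). At 12 h the DMSO libraries had 66.3, 98.5 and 56.7 CPM and the C59 libraries 42.3, 43.6 and 58.8 CPM. These groups overlapped, C59 replicate 3 being above DMSO replicate 3, and the change was -0.61 ± 0.18 (edgeR, adjusted p = 0.0175). It was not called by DESeq2 (adjusted p = 0.0750), by limma, or without C59 12 h replicate 1 (adjusted p = 0.0608) or replicate 2 (adjusted p = 0.0713), with adjusted p-values from 0.00189 to 0.109 over 16 alternatives. DMSO replicate 2, the highest library at that time, weighed on the size of the change, which was -0.36 without it (edgeR, adjusted p = 0.0453). At 24 h, DMSO had 114, 98.4 and 107 CPM and C59 72.5, 72.6 and 78.7 CPM. Here the groups were well separated, at -0.51 ± 0.067 (edgeR, adjusted p = 0.00108), a level in C59 1.42-fold lower than in DMSO. All 16 alternatives called it. At 18 h the C59 libraries, 56.3, 54.3 and 47.99 CPM, were all below the DMSO libraries, 57.3, 79.1 and 76.8 CPM, but by little in the closest pair. The change of -0.41 ± 0.13 did not pass the test (edgeR, adjusted p = 0.105), although it did with all 30 libraries in the fit (adjusted p = 0.0350). At 1 h, with 40.7, 38.7 and 47.1 CPM in DMSO and 55.9, 59.5 and 45.5 CPM in C59, the overlapping groups differed in the other direction, by 0.34 ± 0.091. This value missed the threshold (edgeR, adjusted p = 0.0605) but was called by DESeq2 (adjusted p = 0.0163), and by edgeR without DMSO 1 h replicate 3 (adjusted p = 0.0114) or C59 1 h replicate 3 (adjusted p = 0.0124). The call at 6 h was lost with all 30 libraries in the fit (adjusted p = 0.112).

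*Epha4* (ENSMUSG00000026235, chr1:77367185-77515088, minus strand), the receptor known for guiding motor axons into the dorsal limb, moved in opposite directions at the early and the late time. At 6 h it had 166, 192 and 161 CPM in DMSO and 235, 220.1 and 228 CPM in C59. At 24 h it had 229.6, 209 and 214 CPM in DMSO and 146, 157 and 159 CPM in C59. The C59 libraries were thus all above the DMSO libraries at 6 h and all below them at 24 h. The log2 fold changes were 0.39 ± 0.060 (edgeR, adjusted p = 0.000443) and -0.50 ± 0.058 (edgeR, adjusted p = 0.000440), and both were called in all 16 alternatives. At 12 h and 18 h the values, 0.11 ± 0.070 and -0.043 ± 0.13, did not pass. The 12 h value became a call with upper-quartile factors, at 0.20 (edgeR, adjusted p = 0.0379), and on omitting C59 12 h replicate 1, at 0.19 (edgeR, adjusted p = 0.0249).

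*Epha7* (ENSMUSG00000028289, chr4:28813131-28967499, plus strand), a receptor with a known part in neural tube closure, was higher after C59 at 12 h and 18 h. It had 79.3, 72.3 and 73.3 CPM in DMSO and 122, 118 and 85.02 CPM in C59 at 12 h. At 18 h it had 75.2, 90.7 and 81.5 CPM in DMSO and 140.0, 141 and 103 CPM in C59. No groups overlapped, and in both C59 groups replicate 3 was closest to DMSO. The log2 fold changes were 0.53 ± 0.12 (edgeR, adjusted p = 0.00333) and 0.65 ± 0.14 (edgeR, adjusted p = 0.0245). The 18 h call was lost on leaving out any one of the 5 libraries other than C59 18 h replicate 3 (adjusted p from 0.0596 to 0.114 in edgeR), and without C59 18 h replicate 3 it was 0.78 (edgeR, adjusted p = 0.000785). At 1 h the C59 libraries, 50.5, 55.1 and 53.5 CPM, lay below the DMSO libraries, 58.1, 61.1 and 64.4 CPM, without passing the test (edgeR, adjusted p = 0.0696). *Epha7* was also called higher at 6 h on omitting DMSO 6 h replicate 2, at 0.20, and at 24 h on omitting C59 24 h replicate 1, at 0.24 (edgeR, adjusted p = 0.0479 and 0.0179).

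Of the class B receptors, *Ephb1* (ENSMUSG00000032537, chr9:101922128-102354693, minus strand), a receptor known for turning retinal axons at the optic chiasm, had the largest change. At 12 h it had 9.88, 12.8 and 8.54 CPM in DMSO and 25.01, 21.02 and 23.4 CPM in C59. At 18 h it had 12.9, 15.1 and 13.5 CPM in DMSO and 25.8, 23.8 and 28.5 CPM in C59. Every C59 library was above every DMSO library by a wide margin at both times. The log2 fold change was 1.15 ± 0.13 at 12 h (edgeR, adjusted p = 5.91e-05), a 2.22-fold higher level, and 0.93 ± 0.12 at 18 h (edgeR, adjusted p = 0.00389). Both were called in all 16 alternatives. The value at 12 h fell below 1 in one of them, the limma fit on log2(FPKM + 1), at 0.94.

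At 6 h *Ephb1* had 9.68, 9.48 and 7.73 CPM in DMSO and 10.8, 15.6 and 10.9 CPM in C59. The groups did not overlap, but C59 replicate 2 alone was far above DMSO. The change of 0.45 ± 0.15 just missed the threshold (edgeR, adjusted p = 0.0502). It passed in 10 of 16 alternatives, with adjusted p-values from 0.0195 to 0.210, among them those without DMSO 6 h replicate 1 or 2 or C59 6 h replicate 1. It was 0.26 without C59 6 h replicate 2 (edgeR, adjusted p = 0.210). At 24 h, when *Ephb1* had also risen in DMSO, the C59 libraries, 31.2, 26.6 and 29.6 CPM, were still all above the DMSO libraries, at 0.23 ± 0.083, without passing the test (edgeR, adjusted p = 0.121). At every time, in DMSO and in C59, the exons of *Ephb1* can also have taken reads of the opposite-strand lincRNA *Gm26846*. It shares 152 exon bases with *Ephb1* (2.17% of the exon bases of *Ephb1*). The FPKM were computed as unstranded, and counting by strand was not stated.

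*Ephb3* (ENSMUSG00000005958, chr16:21204755-21223305, plus strand), which with *Ephb2* is known for keeping cells in place along the intestinal crypt, was higher at 6, 12 and 18 h and had the smallest standard error of the members called at 6 h and at 12 h. It had 139, 158 and 145 CPM in DMSO and 198, 194 and 191 CPM in C59 at 6 h. At 12 h it had 160.4, 163 and 156 CPM in DMSO and 240.0, 236 and 229.7 CPM in C59. At 18 h it had 161, 159.7 and 158 CPM in DMSO and 197, 202 and 254 CPM in C59. The groups were apart at all 3 times, and at 18 h C59 replicate 3 was far above the other C59 libraries. The log2 fold changes were 0.40 ± 0.051 (edgeR, adjusted p = 0.000122), 0.56 ± 0.041 (edgeR, adjusted p = 2.85e-06) and 0.46 ± 0.11 (edgeR, adjusted p = 0.0417). The call at 18 h was lost on leaving out DMSO 18 h replicate 1, 2 or 3 or C59 18 h replicate 2 (adjusted p = 0.127, 0.135, 0.169 and 0.0816 in edgeR), in both limma fits and with the replicate block. Without C59 18 h replicate 3 it was 0.33 (edgeR, adjusted p = 0.00599).

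*Ephb2* (ENSMUSG00000028664, chr4:136647539-136835988, minus strand) was the class B receptor that was lower after C59, and only at 12 h among the 5 times. It had 140.0, 145 and 142 CPM in DMSO and 121, 131 and 123 CPM in C59. The groups did not overlap, although the change was small, at -0.19 ± 0.047 (edgeR, adjusted p = 0.00713). With upper-quartile factors, which moved the median of all genes at 12 h from 0.017 to 0.10, *Ephb2* was at -0.10 and did not pass (edgeR, adjusted p = 0.0792).

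Among the class A ephrins, *Efna1* (ENSMUSG00000027954, chr3:89271733-89281142, minus strand), a ligand known from blood vessels, had the largest change, at 12 h. At 6 h it had 27.8, 23.1 and 29.04 CPM in DMSO and 37.04, 37.6 and 28.9 CPM in C59. C59 replicate 3 lay within the DMSO range, and the change was 0.37 ± 0.11 (edgeR, adjusted p = 0.0253). The call was lost without DMSO 6 h replicate 2, C59 6 h replicate 1 or C59 6 h replicate 2 (adjusted p = 0.0629, 0.115 and 0.0992 in edgeR) and in both limma fits. At 12 h *Efna1* had 27.7, 34.2 and 29.98 CPM in DMSO and 62.1, 62.8 and 81.8 CPM in C59. The lowest C59 library was far above the highest DMSO library, C59 replicate 3 being the highest. The log2 fold change was 1.17 ± 0.11 (edgeR, adjusted p = 1.60e-05), a 2.25-fold higher level. It was called in all 16 alternatives with values from 1.04 to 1.25. At 18 h *Efna1* had 39.2, 35.7 and 36.5 CPM in DMSO and 34.6, 37.5 and 43.2 CPM in C59. The groups were mixed again, at 0.070 ± 0.11 (edgeR, adjusted p = 0.744), and at 24 h the value was -0.097 ± 0.095.

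*Efna2* (ENSMUSG00000003070, chr10:80179482-80190010, plus strand), known with *Efna5* as a repellent of retinal axons in the midbrain, was the member that passed at 1 h. It had 128, 116 and 124 CPM in DMSO and 104, 108 and 102 CPM in C59. The C59 libraries were all lower, at -0.22 ± 0.048 (edgeR, adjusted p = 0.0204), at the time when the Y-linked genes also separated the groups, and their part in the difference was not tested. The call was lost without DMSO 1 h replicate 1 or C59 1 h replicate 1 or 3 (adjusted p = 0.0640, 0.0873 and 0.0943 in edgeR), with all 30 libraries in the fit (0.213), in limma on log2(FPKM + 1) and with the replicate block. From 6 h to 24 h the log2 fold changes ran from -0.14 to -0.060 and did not pass, except at 12 h without DMSO 12 h replicate 2 (edgeR, adjusted p = 0.0317).

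*Efna5* (ENSMUSG00000048915, chr17:62604184-62881317, minus strand), the third class A ephrin, passed at no time, with log2 fold changes from -0.027 at 24 h to 0.16 at 1 h. At 12 h it had 48.7, 51.9 and 40.8 CPM in DMSO and 50.7, 53.5 and 46.8 CPM in C59, overlapping groups with a 95% interval of the log2 fold change of -0.097 to 0.29. The class B ephrin *Efnb2* (ENSMUSG00000001300, chr8:8617434-8661242, minus strand) did not pass either, with values from -0.096 at 1 h to 0.17 at 18 h. At 12 h it had 218, 209 and 225 CPM in DMSO and 254, 216 and 182 CPM in C59. The C59 libraries lay on both sides of DMSO, and the 95% interval was -0.21 to 0.21. *Efnb2* did pass at 18 h without C59 18 h replicate 3 (0.22, edgeR adjusted p = 0.0465).

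The change of the C59 effect from one time to the next was tested as an interaction on the 12 libraries of both times. Between 1 h and 6 h the effect moved up for 4 members (*Epha4*, *Epha7*, *Ephb3* and *Efna1*) and down for *Epha3*, at 5.31% up and 7.65% down among all genes. Between 6 h and 12 h it moved up for *Efna1*, by 0.80 ± 0.18 (edgeR, adjusted p = 0.00450), and for *Ephb1*, by 0.70 ± 0.22 (edgeR, adjusted p = 0.0406). In this step it moved down for *Ephb2*, at 6.59% up and 11.5% down among all genes. Between 12 h and 18 h the effect changed for *Efna1* alone among the members, by -1.10 ± 0.17 (edgeR, adjusted p = 0.00165), where 4.94% of all genes moved up and 3.55% down. For *Ephb1*, whose effect stayed high, the same step was -0.22 ± 0.19, with a 95% interval of -0.63 to 0.18. Between 18 h and 24 h the effects of *Ephb1* and *Ephb3* moved down, at -0.70 ± 0.14 and -0.56 ± 0.13 (edgeR, adjusted p = 0.00897 and 0.0196), where 3.53% of all genes moved up and 3.43% down. The step of *Ephb1* from 6 h to 12 h stayed called on omitting DMSO replicate 3 or C59 replicate 2 of 6 h, or replicate 2 of either treatment at 12 h. It was lost on omitting any one of the other 8 libraries, with values from 0.60 to 0.70.

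C59 at 12 h was also compared with DMSO at 24 h, to set the treated levels beside those of older control limb buds. This comparison shares the C59 libraries with the one at 12 h. *Ephb1* had 25.01, 21.02 and 23.4 CPM in C59 at 12 h and 24.8, 24.7 and 25.4 CPM in DMSO at 24 h. These groups overlapped, and the log2 difference of -0.072 ± 0.077 did not pass the test (edgeR, adjusted p = 0.489), with a 95% interval of -0.24 to 0.097. *Efna1*, by contrast, had 62.1, 62.8 and 81.8 CPM in C59 at 12 h against 33.2, 37.1 and 30.4 CPM in DMSO at 24 h, and no DMSO library of any time exceeded 39.2 CPM. Its difference from the older controls was 1.08 ± 0.11 (edgeR, adjusted p = 2.31e-05). *Epha3* went the other way, with 42.3, 43.6 and 58.8 CPM against 114, 98.4 and 107 CPM, at -1.10 ± 0.11 (edgeR, adjusted p = 1.81e-05). *Ephb3* (0.56 ± 0.037), *Epha7* (0.42 ± 0.11) and *Efna2* (0.22 ± 0.057) were higher and *Efna5* (-0.30 ± 0.059) lower than in the older controls. The call of *Epha7* was lost in both limma fits (adjusted p = 0.0679 and 0.0644) and that of *Efna2* with all 30 libraries in the fit (adjusted p = 0.0994). In this comparison 4 members were higher and 2 lower, as were 18.8% and 20.1% of all genes, and 5 members did not overlap, as did 51.3% of all genes. *Epha4*, *Ephb2* and *Efnb2* did not pass, at 0.15 ± 0.062, 0.019 ± 0.045 and 0.062 ± 0.091. *Epha4* was called without C59 12 h replicate 1, at 0.22, and *Efnb2* without C59 12 h replicate 3, at 0.18 (edgeR, adjusted p = 0.00433 and 0.0372).

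Markers of the cell types of the limb bud moved at the same times as the members, and the part of such shifts in the members' changes was not tested. At 12 h the 6 cartilage markers summed to 868 to 929 CPM in DMSO and 1651 to 2356 CPM in C59, 5 of 6 being higher after C59. The list includes *Sox9*, at a log2 fold change of 1.19 ± 0.081 (edgeR, adjusted p = 1.89e-06). The 8 endothelial markers summed to 330.2 to 366 and 416 to 465 CPM (4 of 8 higher) and the 8 markers of surface ectoderm to 281 to 311 and 389 to 524 CPM (7 of 8 higher). The 4 measured markers of Schwann cell precursors summed to 37.1 to 52.05 and 85.3 to 114 CPM (3 of 4 higher), and the 6 macrophage markers to 22.7 to 25.1 and 41.02 to 43.1 CPM (6 of 6 higher). The 6 markers of limb mesenchyme summed to 2168 to 2216 CPM in DMSO and 1764 to 1925 CPM in C59, with 4 lower and 2 higher. They were by far the most abundant of these lists in controls apart from the erythroid one, and no marker of any list was at 0 in all libraries. At 18 h, when *Ephb1* stayed high and *Efna1* did not, the sums in DMSO and C59 were 968 to 1105 and 1473 to 1797 CPM for cartilage (3 of 6 higher) and 290.1 to 310.0 and 369 to 427 CPM for ectoderm (4 of 8 higher). They were 65.4 to 78.9 and 92.5 to 111 CPM for Schwann cell precursors (1 of 4 higher) and 328 to 376 and 363 to 399 CPM for endothelium (0 of 8 passing). The endothelial sums thus overlapped at 18 h and the others did not. Of the other lists, the sums of neurons were apart at 12 h, at 29.05 to 38.5 and 40.6 to 48.1 CPM (1 higher and 1 lower of 5 tested), and those of muscle progenitors (102 to 120.2 and 116 to 149.6 CPM) and erythroid cells (3176 to 4617 and 4088 to 6102 CPM) overlapped. At 18 h the sums were also apart for macrophages (34.7 to 38.3 and 51.6 to 56.8 CPM, 3 of 6 higher) and muscle progenitors (170.0 to 174 and 121 to 165 CPM). Of the muscle progenitor markers, 3 of 6 were lower, with log2 fold changes from -1.61 to 0.35. The sums of erythroid cells (2576 to 3305 and 3357 to 4979 CPM) were apart too. Of these markers 0 of 5 tested passed, with log2 fold changes from -0.64 to 0.83. The sums overlapped for neurons and mesenchyme. At 6 h, where *Epha4* and *Ephb3* were higher and *Epha3* was lower, the sums in DMSO and C59 were apart for 4 of the 9 lists. They were 2190.0 to 2278 and 1759.7 to 1856 CPM for mesenchyme (1 higher and 4 lower of 6) and 735 to 800.4 and 905 to 1079 CPM for cartilage (2 higher of 4 tested, *Sox9* at 0.72 ± 0.053). They were 89.5 to 93.6 and 121 to 133 CPM for muscle progenitors (2 higher and 1 lower of 6) and 29.8 to 35.7 and 39.3 to 51.6 CPM for Schwann cell precursors (2 higher of 4). At 24 h, where *Epha3* and *Epha4* were lower, the sums were apart for 7 of the 9 lists, all but those of Schwann cell precursors and erythroid cells. Mesenchyme (2165 to 2193 and 1991 to 2122 CPM, 1 of 6 lower), endothelium (352 to 359 and 296 to 330.3 CPM, 1 of 8 lower), muscle progenitors (208 to 235 and 175 to 200.1 CPM, 3 of 6 lower) and neurons (46.8 to 58.7 and 36.6 to 43.5 CPM, 1 of 5 tested lower) had lower sums after C59. Ectoderm (335 to 343 and 391 to 427 CPM, 3 of 8 higher), macrophages (40.5 to 44.2 and 52.7 to 56.1 CPM, 2 of 6 higher) and cartilage (1161 to 1308 and 1393 to 1566 CPM, 2 of 6 higher) had higher ones. Single markers went against the sums, with log2 fold changes up to 0.13 in mesenchyme, 0.11 in endothelium and 0.049 in neurons. The lowest values were -0.23 in ectoderm and -0.041 in cartilage, the latter that of *Sox9*. At 1 h, where *Efna2* was lower, the sums in DMSO and C59 were apart for mesenchyme and neurons and overlapped for the other lists. They were 2049 to 2115 and 1947 to 2030 CPM for mesenchyme (1 of 6 lower, log2 fold changes from -0.18 to 0.083). Neurons had 23.98 to 25.6 and 27.5 to 29.5 CPM (0 of 5 tested passing). Of the erythroid markers, 2 of 5 tested were higher. *Hoxa13* and *Hoxd13*, which mark the distal limb bud, were lower at 24 h, at -0.70 ± 0.079 and -0.52 ± 0.075 (edgeR, adjusted p = 0.000321 and 0.00214). *Hoxd13* was lower at 12 h and 18 h, at -0.57 ± 0.14 and -0.89 ± 0.11 (edgeR, adjusted p = 0.00577 and 0.00328), and *Hoxa13* was higher at 6 h, at 0.32 ± 0.062 (edgeR, adjusted p = 0.00279).

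Of the 12 other Eph and ephrin genes, 9 or 10 could be tested at each time. *Efnb1* lies on the X chromosome, which the count table does not cover, and *Epha10* had too few counts. At 12 h, 3 of 10 were higher and 2 lower (22.0% and 25.5% of all genes). At 18 h 2 of 10 were higher and 1 lower (3.46% and 3.62%), and at 6 h 1 of 9 was lower (11.4%). Of the 2 higher ones at 18 h, *Epha6* entered the test through its C59 libraries. At 1 h and 24 h none passed the edgeR test. An unadjusted p below 0.05 was found for 4 and 1 of them, a rule for which no share of all genes is given. The class A receptor *Epha2* had 22.7, 19.4 and 25.2 CPM in DMSO and 10.3, 11.4 and 12.05 CPM in C59 at 12 h. All C59 libraries were lower, at -0.99 ± 0.12 (edgeR, adjusted p = 5.91e-05), close to a log2 fold change of 1, and at 6 h the value was -0.38 ± 0.087 (edgeR, adjusted p = 0.00718).

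The ephrin *Efna3*, which lies 32756 bases from *Efna1* on chromosome 3 on the same strand, had 9.43, 10.2 and 10.6 CPM in DMSO and 20.5, 15.97 and 16.3 CPM in C59 at 12 h. At 18 h it had 11.2, 10.2 and 9.13 CPM in DMSO and 17.3, 17.4 and 18.5 CPM in C59. The C59 libraries were above the DMSO libraries at both times, at 0.80 ± 0.12 and 0.82 ± 0.12 (edgeR, adjusted p = 0.000346 and 0.00629). *Efna4*, another 10424 bases further, was at 0.094 ± 0.055 and -0.10 ± 0.12 and passed at neither time. Of these neighbouring ephrin genes, *Efna1* was thus higher at 12 h and not at 18 h, and *Efna3* at both.

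On chromosome 4 the neighbours *Ephb2* and *Epha8*, 93430 bases apart, were both lower at 12 h, as were 25.5% of all genes. *Ephb2* was at -0.19 ± 0.047, a call lost with upper-quartile factors, and at 18 h at -0.0082 ± 0.10 without passing. *Epha8* was at -1.09 ± 0.28 and at 18 h at -1.70 ± 0.27 (edgeR, adjusted p = 0.00871 and 0.00960). *Epha8* was scarce, at 2.43, 2.35 and 2.92 CPM in DMSO and 0.561, 0.749 and 1.01 CPM in C59 at 18 h. *Epha6* was scarcer still, at 0.162, 0.294 and 0.540 CPM in DMSO and 1.78, 1.90 and 1.29 CPM in C59 at 18 h, where it was higher by 2.35 ± 0.39 (edgeR, adjusted p = 0.0102). *Epha6* met the filter on low counts at 18 h through its C59 libraries, so this call was not independent of the filter. *Ephb6* (0.26 ± 0.079) and *Efnb3* (0.17 ± 0.052) were slightly higher at 12 h. The vein-associated receptor *Ephb4*, a partner of *Efnb2*, passed at no time, with 0.043 ± 0.040 at 12 h. For *Efnb1* only FPKM could be given, 47.8, 48.3 and 46.98 in DMSO and 48.6, 47.4 and 48.1 in C59 at 12 h.

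**Figure D4:**
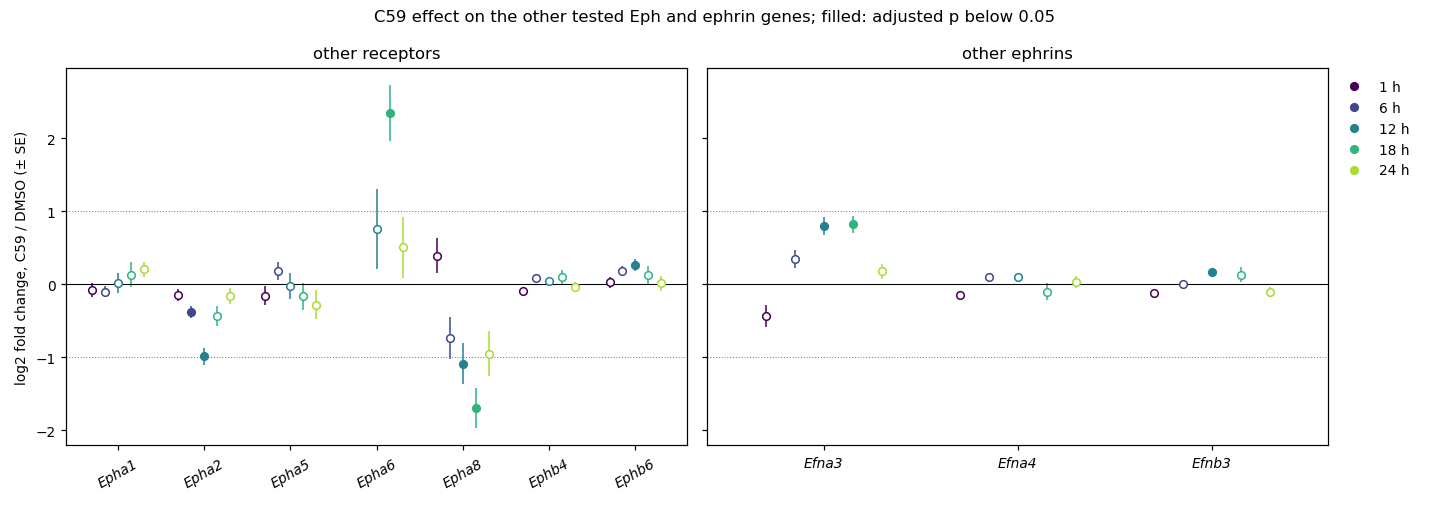
Log2 fold change of C59 over DMSO (± SE, 3 against 3 libraries) at each time for the other Eph receptors and ephrins that could be tested, filled where the edgeR adjusted p was below 0.05. *Epha2* was at -0.99 and *Efna3* at 0.80 at 12 h, and the wide bars belong to the scarce genes *Epha6* and *Epha8*.

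Inside the cell, Eph receptors and ephrins act through adaptors, exchange factors and phosphatases, and 41 such genes were followed as a list. At 12 h, 9 of 39 tested were higher and 8 lower (22.0% and 25.5% of all genes), none beyond a log2 fold change of 1, with a median of -0.0030 against 0.017 over all genes. The highest value was that of *Rgs3*, a regulator of G-protein signaling that binds class B ephrins, at 0.61 ± 0.078 (edgeR, adjusted p = 0.000118), and the lowest that of *Chn1*, a Rac GTPase-activating protein that acts downstream of *Epha4*, at -0.41 ± 0.070 (edgeR, adjusted p = 0.000753). At 6 h 4 of 38 were higher and 2 lower (8.2% and 11.4% of all genes). At 1 h 1 was higher (1.14%), at 18 h 1 was lower (3.62%) and at 24 h 2 were lower (3.56%).

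For the members called beyond a log2 fold change of 1, the genes with the most similar course were sought among 12419 genes, by the root mean square difference of the centred log2 CPM over the 10 group means. For *Ephb1* they were *Hivep2* (0.126), *Prkar1b* (0.132) and *Brinp1* (0.146), and for *Efna1* they were *Trp53inp1* (0.125), *Rasl11b* (0.143) and *Fgd4* (0.145). The differences are in log2 units and describe these 10 means only.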

How the data were processed

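PolyA RNA of 30 mouse forelimb bud libraries was analysed, grouped by treatment and time as labelled. As deposited, the table of raw counts leaves out chromosomes X, Y and M, and the deposited FPKM table was computed by the authors with Cufflinks. Tools per the submitters' processing notes were cutadapt 1.16, STAR 2.7.0e and Cufflinks 2.2.1, with build mm10. Per the study's methods, Cufflinks was run as unstranded, and whether the raw counts used the strand was not given in the sources used here. Genes were matched to GENCODE M21 (GRCm38), and 205 unmatched genes held 0.0068% of the counts.

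Counts of protein-coding autosomal genes were tested in edgeR 4.0.16 (R 4.3.3): quasi-likelihood F test, two-sided, TMM factors, low counts removed by filterByExpr (min.count 10, min.total.count 15), Benjamini-Hochberg adjustment over all genes tested, each time on its own 6 libraries. Interactions used 12 libraries and the control course the 15 DMSO libraries. Standard errors were derived from F. CPM use TMM factors over all 30 libraries. The edgeR step was tested on simulated data.

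The members, the gene lists and the tests were chosen with earlier results of these data known. Genes named are the members, the other Eph and ephrin genes, the extremes of the signal transduction list at 12 h, *Axin2*, *Sox9*, *Hoxa13*, *Hoxd13*, and for members called beyond a log2 fold change of 1 the 3 genes of most similar course. Alternatives were DESeq2 1.42.0, other size factors, filters and gene sets, all 30 libraries, limma 3.58.1 on log2(FPKM + 1) and log2(FPKM + 0.1), glmTreat, a replicate block, and omission of single libraries. Columns of per-sample values left unused numbered 0.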

Additional observations from a re-analysis of the deposited data

Results flagged for a closer look

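Between neighbouring times the C59 effect on some members differed by the interaction test in edgeR, which is what marks these values for a closer look. Among all genes, 5.31% moved up and 7.65% down between 1 h and 6 h, and 6.59% and 11.5% between 6 h and 12 h. The shares were 4.94% and 3.55% between 12 h and 18 h, and 3.53% and 3.43% between 18 h and 24 h. Between 1 h and 6 h the log2 effect changed by -0.73 for *Epha3*, 0.52 for *Epha4*, 0.34 for *Epha7*, 0.47 for *Ephb3* and 0.53 for *Efna1* (edgeR, Benjamini-Hochberg adjusted p = 0.00202, 0.000977, 0.0278, 0.000136 and 0.0226). The value for *Epha7* was lost on omitting any one of 6 libraries (DMSO 1 h replicate 2 or 3, C59 1 h replicate 1 or 3, and replicate 1 of either treatment at 6 h; adjusted p from 0.0505 to 0.0872), and that for *Efna1* without C59 1 h replicate 2 (0.45), C59 6 h replicate 1 (0.47) or C59 6 h replicate 2 (0.47). At both of these times the Y-linked genes separated the treatment groups. Between 6 h and 12 h it changed by 0.70 for *Ephb1*, -0.28 for *Ephb2* and 0.80 for *Efna1* (edgeR, adjusted p = 0.0406, 0.0122 and 0.00450). The *Ephb2* value was -0.22 without C59 6 h replicate 3 (edgeR, adjusted p = 0.0512). Between 12 h and 18 h it changed by -1.10 for *Efna1* (edgeR, adjusted p = 0.00165). Between 18 h and 24 h it changed by -0.70 for *Ephb1* and -0.56 for *Ephb3* (edgeR, adjusted p = 0.00897 and 0.0196). The *Ephb3* value was lost without DMSO 18 h replicate 3 (adjusted p = 0.0506) or C59 24 h replicate 2 (adjusted p = 0.0639).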

How the results depend on the processing

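Over 110 member results and 1740 alternative values, 1644 stayed on their side of the threshold, values that never passed being free to change sign, 55 lost the call, 41 gained it and 0 called values changed direction. At 1 h, 1 member passed in the main test, 2 in DESeq2, 3 without a filter, 0 with all 30 libraries, 0 in limma on log2(FPKM + 1) and 0 to 2 on leaving out a library. Beyond a log2 fold change of 1 at 12 h, 2 members were called, 1 in limma on log2(FPKM + 1) and 0 by glmTreat, which tests against that fold itself. At 18 h, 3 passed, and 1 to 4 on leaving out a library. The C59 effect changed from 1 h to 6 h for 5 members, for 3 with all 30 libraries and 3 to 5 on leaving out a library, from 6 h to 12 h for 3, for 5 in DESeq2 and 1 to 4 on leaving out a library, from 12 h to 18 h for 1, and 1 to 2 on leaving out a library, and from 18 h to 24 h for 2, for 4 in DESeq2, 4 with all 30 libraries and 1 to 4 on leaving out a library. The cause was not tested. With the replicate number as a block, 0, 5, 6, 2 and 2 members passed in the order of the times. Over all genes, same-numbered libraries did not deviate together (correlations from -0.133 to 0.103). This check cannot exclude that such libraries were linked in some other way, and the labels give only a shared number. Genes of few counts, *Epha6*, *Epha8* and *Epha10*, were limited by depth.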
